A study of Mus musculus with 11 samples.

Results

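Ifit1, Ifit2, Ifit3, Ifit3b, Oas1a, Oasl1, Oasl2, Rsad2, Apol9a and Apol9b are interferon-induced antiviral genes, and their levels were followed in mouse thymic fibroblasts before and after dexamethasone. These 10 of the 12430 genes in the deposited table were chosen by name, with their levels in untreated, 18 h and 4 d libraries already known, so their own differences are given as description, without p-values. All 10 passed the filter on low counts, which kept 10067 genes. The question was which of them lay below the untreated level at 4 d. In Ifit3 and the near-copies Apol9a and Apol9b, every 4 d library lay below every untreated one. Their means were 44.7%, 37.8% and 42.0% of the untreated mean, while Oasl1 stood at 293% of it. Ifit2, Ifit3b and Oasl2, at 75.9%, 50.4% and 71.1%, overlapped with untreated. Whether Ifit3, Apol9a and Apol9b passed the threshold of the test depended on the libraries and the fit used.

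The mice were young wild-type males. The untreated group held 4 libraries from age-matched mice that received nothing, and the other groups had an intraperitoneal injection of dexamethasone, a synthetic glucocorticoid, at 200 ug for each 10 g of body weight. Fibroblasts were taken 18 h after it in 3 libraries and 4 d after it in 4 libraries. The sort is given in the labels as CD45-, EpCAM+, CD34+, CD31- and PDGFRalpha+, from enzymatically dissociated thymus, and RNA was read at its 3' end by MARS-seq. The labels do not state that each library came from its own animal, so the errors measure the spread between libraries, which may be technical.

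Type I and type III interferons act through receptors and JAK kinases on a transcription factor complex that contains STAT2 and IRF9 and binds the interferon-stimulated response element in the promoters of antiviral genes. IFIT proteins bind viral RNA and block its translation. OAS enzymes sense double-stranded RNA and make oligoadenylates that set off the breakdown of RNA, whereas mouse Oasl1 has no such activity and is known to repress translation of Irf7 mRNA. Rsad2 encodes viperin, which makes a nucleotide that stops viral polymerases, and Apol9a and Apol9b encode apolipoprotein L proteins that restrict virus growth in mouse cells. Glucocorticoids are best known in the thymus for killing immature T cells and elsewhere for damping inflammatory transcription.

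The genes lie in 4 places of the GRCm38 genome, all protein-coding in the GENCODE annotation. The IFIT genes are clustered on the plus strand of chromosome 19, with Ifit2 at chr19:34550694-34576419, Ifit3 at chr19:34583531-34588731, Ifit3b at chr19:34607970-34613401 and Ifit1 at chr19:34640871-34650009. Oasl2 (chr5:114896936-114912234) and Oasl1 (chr5:114923240-114937915) are neighbours on the plus strand of chromosome 5, and Oas1a (chr5:120896256-120907521) is on its minus strand. Rsad2 is on the minus strand at chr12:26442746-26456452. Apol9a (chr15:77403789-77411135, minus strand) and Apol9b (chr15:77729039-77736382, plus strand) face opposite ways on chromosome 15.

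Promoter windows from RefSeq on GRCm38.p6, reaching from 250 bases before the start to 50 after it, were searched on both strands for the response element core GAAANNGAAA, whose reverse complement is TTTCNNTTTC, and for the gamma-activated sequence TTCNNNGAA, which reads the same on both strands. The core was in the windows of 7 of the 10 genes, and not in those of Ifit2, Oasl1 and Oasl2, against 3.99% of 27025 genes and 3.44% of 32851 windows. The gamma-activated sequence was in 2 of the 10, Ifit2 and Oas1a, against 9.55% of genes and 8.30% of windows. Overlapping matches of the core were joined into 1, and the gamma-activated sequence overlapped none of them in these windows. Of the other interferon pathway genes described further on, 36 of the 82 with a window held the core. The stretches below run 5′ to 3′ on the strand of the gene and are shown so that the near-copies can be compared, with the core match nearest the start in capitals. Ifit3 and Ifit3b each have another match elsewhere in the window, and the other match of Ifit1 lies within the stretch shown, in small letters.
Ifit3, chr19:34583382-34583441: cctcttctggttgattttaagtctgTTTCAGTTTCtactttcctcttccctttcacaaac
Ifit3b, chr19:34607778-34607837: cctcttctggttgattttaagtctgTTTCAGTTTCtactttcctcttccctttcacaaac
Ifit1, chr19:34640779-34640838: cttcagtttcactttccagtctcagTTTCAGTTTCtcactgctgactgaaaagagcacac
Oas1a, chr5:120907505-120907570: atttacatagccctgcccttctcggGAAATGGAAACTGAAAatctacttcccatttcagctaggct
Rsad2, chr12:26456538-26456597: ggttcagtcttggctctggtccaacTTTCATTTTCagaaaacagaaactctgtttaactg
Apol9a, chr15:77411099-77411164: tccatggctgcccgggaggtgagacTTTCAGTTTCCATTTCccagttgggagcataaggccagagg
Apol9b, chr15:77729010-77729075: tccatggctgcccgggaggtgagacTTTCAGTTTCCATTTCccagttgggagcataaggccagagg
The Apol9a and Apol9b stretches are identical over all 66 bases, and those of Ifit3 and Ifit3b over all 60. A core match was in Ifit3, Apol9a and Apol9b, which lay below untreated at 4 d. It was also in Ifit1, Ifit3b, Oas1a and Rsad2, which overlapped with untreated. Of the genes without it in this window, Oasl1 lay above untreated, and Ifit2 and Oasl2 overlapped. No link between the core and the level at 4 d was tested. A match describes the letters only, and the absence of one says nothing of the factor.

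Total counts per library were between 916281 and 3357113. The 2 shallow libraries were 18 h replicate 2, at 924731 counts, and 4 d replicate 4, at 916281. The upper limit that a count of 0 allows, 3 counts, corresponds to at most 3.74 CPM. CPM are counts divided by the library size on a TMM scale, and these limits cover counting error only. The defining fibroblast markers were present in every group, with Cd34 at 469 to 1303 CPM over the 11 libraries and Pdgfra at 106 ± 31.1 CPM (SD, n = 4) untreated, 65.7 ± 13.9 CPM (n = 3) at 18 h and 100.5 ± 45.0 CPM (n = 4) at 4 d, while Epcam, given as positive in the labels, was at 0.378 to 10.4 CPM. The summed level of 11 fibroblast markers was 20314 to 30826 CPM in untreated, 9426 to 19194 CPM at 18 h and 22697 to 40493 CPM at 4 d. Markers of other cells are given by group. All 12 endothelial markers were measured and summed to 219 to 350 CPM in untreated, 232 to 1059 CPM at 18 h and 144 to 270 CPM at 4 d, with Vwf at 0 in untreated. The 10 measured of 14 macrophage and monocyte markers summed to 83.9 to 152 CPM, 164 to 472 CPM and 94.2 to 118 CPM in the same order, and the 9 of 10 pericyte markers to 133 to 301 CPM, 402 to 1088 CPM and 118 to 183 CPM. The 6 measured of 8 dendritic cell markers summed to 5.71 to 21.2 CPM, 27.9 to 61.8 CPM and 8.86 to 33.6 CPM. The 7 measured of 10 thymic epithelial markers summed to 246 to 634 CPM, 405 to 597 CPM and 84.0 to 725 CPM, and the 10 of 13 thymocyte and lymphocyte markers to 12.4 to 65.0 CPM, 21.9 to 72.0 CPM and 5.32 to 31.3 CPM. The part of these cells in the 18 h values was not tested. In bulk samples, fewer cells of a type and less RNA per cell cannot be told apart.

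At 18 h, 9 of the 10 genes were higher than in untreated fibroblasts, by 3.11-fold for Apol9b to 23.4-fold for Oasl1. They passed an adjusted p below 0.05 in edgeR's quasi-likelihood test, as 7.85% of all tested genes did in that direction, and the same 9 had every 18 h library above every untreated one, as did 12.2% of all genes. The median log2 difference was 3.19 over the 10 genes and -0.03 over all genes. Since these genes were chosen with that comparison known, nothing is read from the counts. The remaining gene was Oasl2. Without 18 h replicate 2 all 10 were called higher.

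Among the IFIT genes the response was steadiest for Ifit3 and its near-copy. Ifit3 was at 132, 82.3, 113 and 146 CPM in untreated replicates 1 to 4 and at 1388, 1768 and 1254 CPM in 18 h replicates 1 to 3, a log2 difference of 3.64 ± 0.28 (SE). Ifit3b was at 36.2, 16.2, 35.0 and 33.3 CPM untreated and at 335, 275 and 371 CPM at 18 h, a difference of 3.43 ± 0.34. Both pairs of groups were far apart, and the 18 h libraries lay within 1.41-fold of each other for Ifit3 and 1.35-fold for Ifit3b. Ifit2, another RNA-binding member of the family, was lower in level, at 8.29, 11.8, 21.0 and 15.1 CPM untreated against 80.0, 30.4 and 78.7 CPM, a difference of 2.17 ± 0.36. Its groups did not overlap, although 18 h replicate 2 came nearest to the untreated range. Ifit1, which recognises RNA whose cap lacks the host's methylation, was at 29.5, 31.4, 32.1 and 37.5 CPM untreated and at 173, 42.5 and 535 CPM at 18 h, a difference of 2.95 ± 0.58. Without 18 h replicate 3 the difference was 1.75, and without replicate 2 it was 3.43. The untreated libraries were close together and the 18 h libraries 12.6-fold apart, the widest of the 10 genes.

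The OAS genes differed among themselves. Oasl1 was at 17.6, 15.1, 9.99 and 9.46 CPM untreated and at 260, 261 and 384 CPM at 18 h, a log2 difference of 4.55 ± 0.29 that was the largest of the 10. Oas1a, a synthetase of oligoadenylates, was at 8.29, 7.84, 6.42 and 6.43 CPM untreated and at 51.7, 131 and 73.9 CPM at 18 h, a difference of 3.54 ± 0.35. In both genes all 18 h libraries lay far above untreated, and replicate 2 was the highest for Oas1a. Oasl2, which in mice keeps the synthetase activity, was at 103, 145, 146 and 89.3 CPM untreated and at 273, 42.5 and 468 CPM at 18 h. Its log2 difference of 1.13 ± 0.49 was not called, and the groups overlapped, because 18 h replicate 2 lay below every untreated library and the others above. Without that library the difference was 1.62 and was called, and without 18 h replicate 3 it was 0.42 and was not.

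Rsad2 and the apolipoprotein genes were higher in every 18 h library. Rsad2 was at 9.32, 13.4, 9.27 and 21.2 CPM untreated and at 150, 153 and 277 CPM at 18 h, a log2 difference of 3.85 ± 0.45. Apol9a was at 74.1, 72.2, 105 and 64.0 CPM untreated and at 255, 361 and 279 CPM at 18 h, a difference of 1.91 ± 0.28. Apol9b was at 67.3, 62.2, 102 and 57.5 CPM untreated and at 194, 244 and 237 CPM at 18 h, a difference of 1.64 ± 0.29. The apolipoprotein genes had thus the smallest of the called differences, from an untreated level already well above the counting limit.

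**Figure D1:**
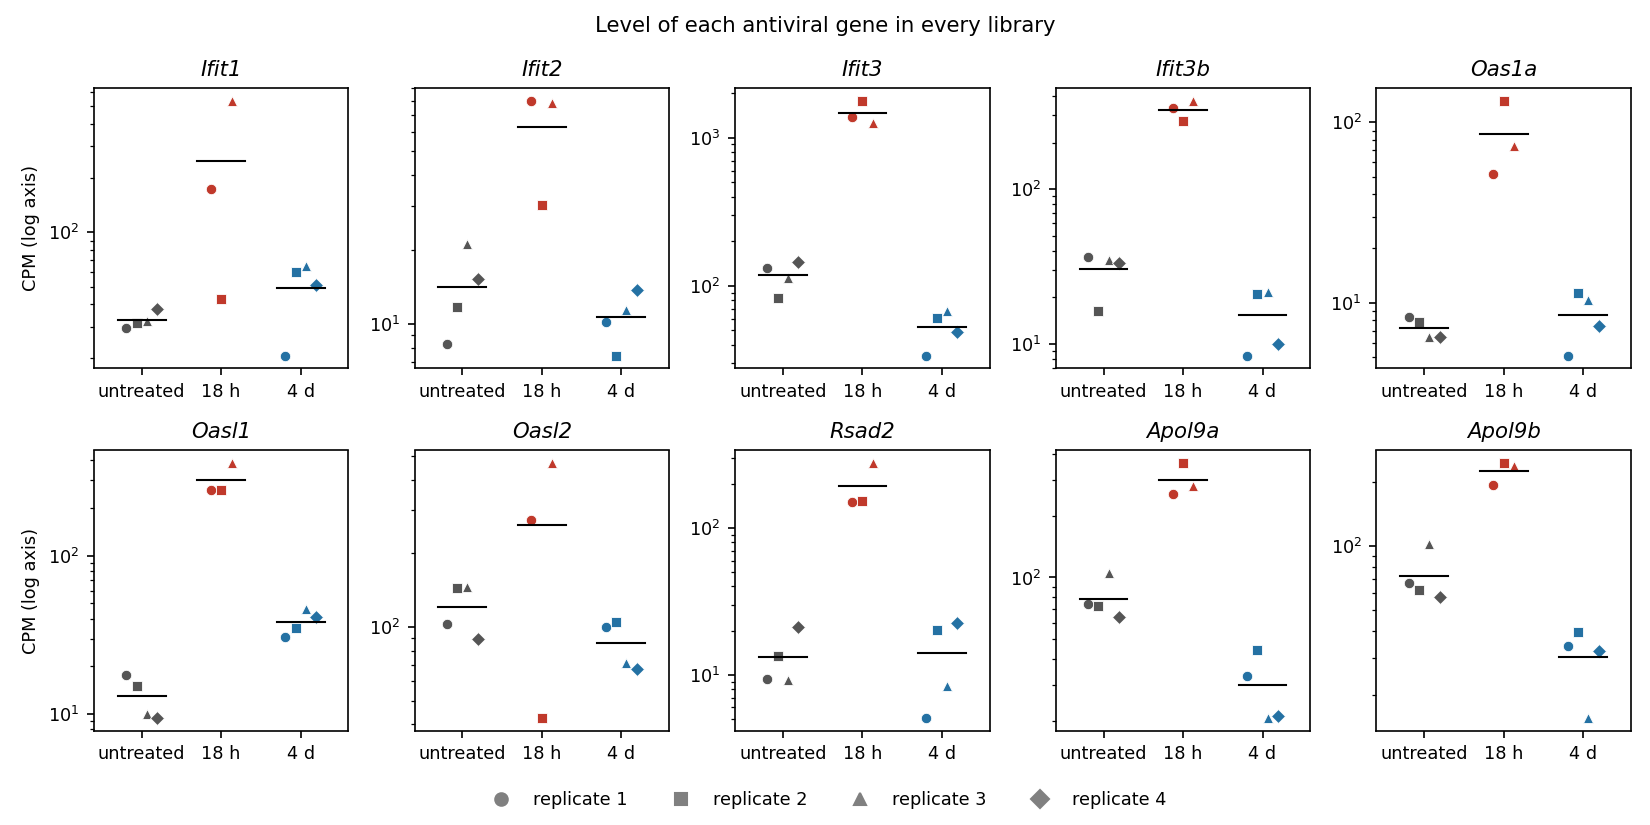
Level of each of the 10 antiviral genes in every library, in CPM on a log axis that differs between panels, with a bar at the group mean and a symbol for each replicate number. Ifit3, Apol9a and Apol9b have all 4 d libraries below all untreated ones, Oasl1 has them above, and 18 h replicate 2 (square) is low for Ifit1 and Oasl2.

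Ifit1 and Oasl2 were both lowest in 18 h replicate 2, although replicates 1 and 3 also lay apart. In 18 h replicate 2 both genes had 35 counts, or 42.5 CPM, which was 1.30 times the untreated mean for Ifit1 and 0.352 times for Oasl2. In replicates 1 and 3 the same ratios were 5.30 and 16.4 for Ifit1 and 2.27 and 3.88 for Oasl2. The other genes did not follow them, since replicate 2 had the highest ratio of the 3 libraries for Ifit3 (15.0), Oas1a (18.1), Apol9a (4.58) and Apol9b (3.38). Ifit2 was intermediate, at 2.16 times the untreated mean against 5.69 and 5.60 in the others. Several marker sums were also lowest in replicate 2. Its endothelial marker sum was 232 CPM against 1059 and 672 CPM in replicates 1 and 3. Its macrophage sum was 164 CPM against 382 and 472 CPM. Its dendritic cell sum was 27.9 CPM against 61.8 and 61.5 CPM. Its thymocyte and lymphocyte sum was 21.9 CPM against 59.7 and 72.0 CPM. Its fibroblast sum was also the lowest, at 9426 CPM against 14879 and 19194 CPM, whereas its pericyte sum of 538 CPM lay between 1088 and 402 CPM and its thymic epithelial sum of 552 CPM between 405 and 597 CPM.

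**Figure D2:**
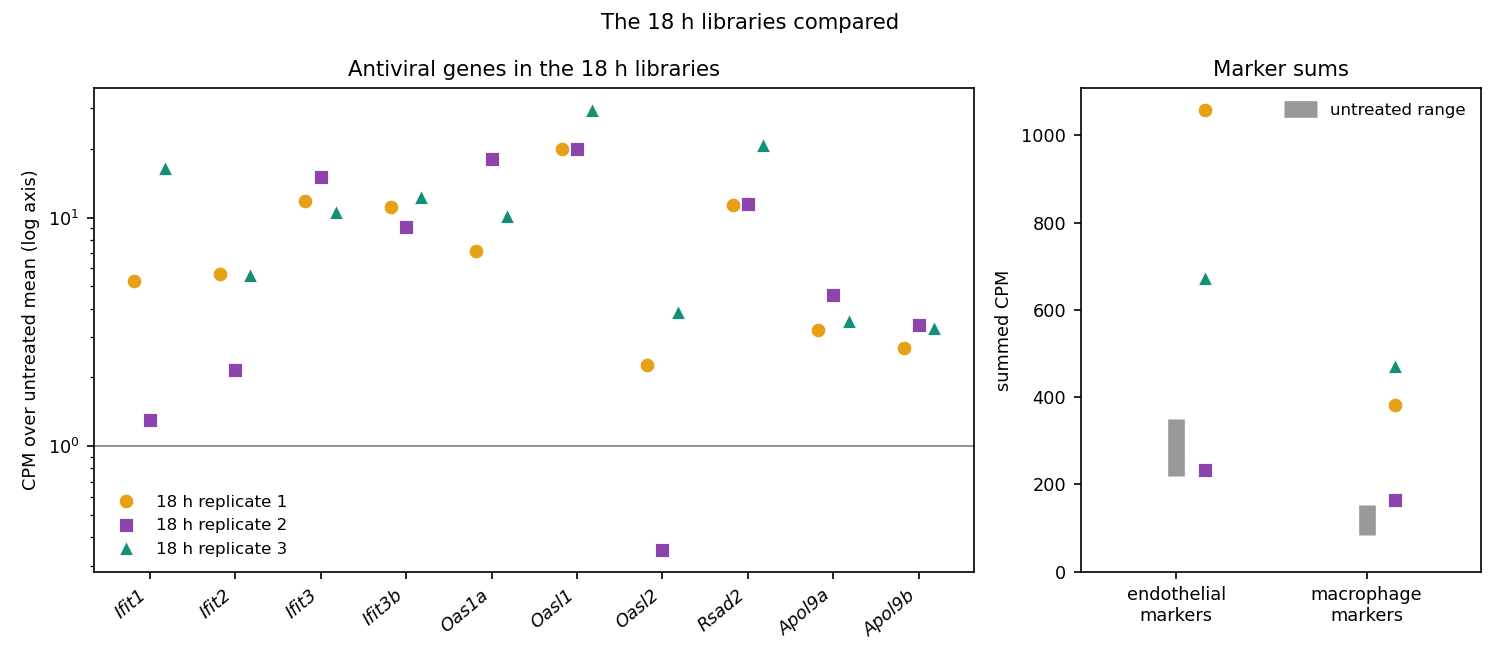
Left, CPM of each gene in the 3 libraries at 18 h divided by the untreated mean, on a log axis with a line at 1. Right, summed CPM of the endothelial and macrophage markers in the same libraries beside the range of the untreated group (grey bar). Replicate 2 (square) is the lowest for Ifit1, Ifit2, Ifit3b and Oasl2 and for both marker sums, and the highest for Ifit3, Oas1a, Apol9a and Apol9b.

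A search over all tested genes found 74 that replicate 2 held at least 4-fold below the lower of replicates 1 and 3, where those were both at 20 CPM or more and above every untreated library. Replicate 2 had 924731 total counts, against 1915579 and 2290284 in replicates 1 and 3, and the part of depth was not tested. The search was made after the values of replicate 2 were seen. It found 1 gene for replicate 1 and 2 for replicate 3. These 74 of the 10067 tested genes included Ifit1 and Oasl2 and the pathway genes Gbp3 and Ifi203. They also included 3 of the 12 measured endothelial markers, 2 of 10 macrophage markers and 1 of 9 pericyte markers. Interferon pathway genes outside the 10 stood on both sides in this library, since of the 108 tested 43 were highest in it among the 18 h libraries and 42 lowest, against 3978 and 4376 of all 10067 tested genes. Irgm1, a GTPase gene, was lowest in it, at 150, 89.9 and 409 CPM in 18 h replicates 1 to 3, and so was Irf9, at 185, 128 and 263 CPM. Others were highest. Oas2 was at 377, 538 and 170 CPM in 18 h replicates 1 to 3, Oas3 at 73.0, 200 and 127 CPM, and Eif2ak2, which encodes the RNA-activated kinase PKR, at 130, 355 and 113 CPM. The part of endothelial, macrophage or other cells in the values of Ifit1 and Oasl2 was not tested.

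Of 19 listed interferon genes, 3 were measured, all with few counts, and the others were not analysed here. Ifnl2 and Ifnl3, type III interferons that are near-identical in sequence and so not securely told apart by counting, had 9 and 14 counts in 18 h replicate 2. Elsewhere Ifnl2 had 1 count, in untreated replicate 2, and Ifnl3 had 0 counts in the other 10 libraries. Ifng, the type II interferon, had 11 counts in 18 h replicate 3 and at most 1 in any other library. None of these 3 passed the filter, so none was tested. The receptor chain Ifnar2 was at 280 ± 48.0 CPM (SD, n = 4) untreated, 274 ± 121 CPM (n = 3) at 18 h and 294 ± 46.5 CPM (n = 4) at 4 d, and Ifnar1 at 7.83 ± 2.38, 8.01 ± 1.37 and 7.82 ± 3.49 CPM in the same order, so that the groups overlapped for both.

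At 4 d the 10 genes no longer moved together. Ifit3, Apol9a and Apol9b were called lower than untreated, as 0.824% of all tested genes were, and Oasl1 was called higher, as 2.48% were. The same 3 genes had every 4 d library below every untreated one, as did 6.56% of all genes, and Oasl1 had every one above, as did 8.07%. The other 6 overlapped with untreated. The median log2 difference was -0.48 over the 10 genes and -0.04 over all genes, and nothing is read from these counts either.

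Ifit3 was at 33.8, 60.6, 68.0 and 48.6 CPM in 4 d replicates 1 to 4, against 82.3 to 146 CPM untreated, a log2 difference of -1.16 ± 0.26. Apol9a was at 33.1, 44.3, 20.7 and 21.2 CPM, against 64.0 to 105 CPM, a difference of -1.38 ± 0.27. Apol9b was at 33.8, 39.3, 15.7 and 32.4 CPM, against 57.5 to 102 CPM, a difference of -1.26 ± 0.28. In each gene the highest 4 d library lay under the lowest untreated one. Over 11 fits that each left out a library, the difference stayed between -1.31 and -0.99 for Ifit3, between -1.64 and -1.21 for Apol9a and between -1.43 and -1.03 for Apol9b. The calls were less steady than the values: without untreated replicate 3 none of the 10 genes was called lower, although edgeR gave all 3 the same sign, and without 4 d replicate 1, 3 or 4 the number was 1. The endothelial, macrophage and fibroblast marker sums of the 4 d group overlapped with those of untreated.

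Ifit3b lay just outside. It was at 8.37, 20.9, 21.7 and 9.97 CPM at 4 d against 16.2 to 36.2 CPM untreated, a log2 difference of -0.94 ± 0.33 that was not called, where Ifit3 at -1.16 was the called gene nearest to it. The overlap came from untreated replicate 2, at 16.2 CPM. With the counts of Ifit3 and Ifit3b summed, the difference of the pair was -1.12, and it was called.

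Reads of the near-copies may be split between them, since the last 500 bases of an Ifit3 transcript were 94.6% identical to a stretch of Ifit3b. The reverse placement, the end of Ifit3b in Ifit3, gave 37.4%. The ends of Apol9a and Apol9b transcripts were between 35.2% and 99.2% identical to the other gene, depending on the pair of transcripts. Ifit3 held 74.3% to 86.6% of the counts of its pair in the 11 libraries and Apol9a 39.5% to 59.6% of its pair, and the members of a pair are not taken here as separate observations. The last 500 bases of Oas1a were 98.0% identical to a stretch of Oas1g, and those of Oas1g 74.6% to Oas1a, so Oas1a is uncertain in the same way. Oasl1 overlaps an antisense gene, Gm13822, which has no row in the count table, and the strand setting of the counting is not given in the sources used here.

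Oasl1 was the exception on the other side. It was at 30.6, 34.7, 46.3 and 41.1 CPM at 4 d, above the untreated range of 9.46 to 17.6 CPM in every library, a log2 difference of 1.56 ± 0.27. Leaving out each library in turn gave 1.43 to 1.74, and the gene was called each time. Its level at 4 d was still far under the 260 to 384 CPM of 18 h. Irf7, the transcription factor whose mRNA Oasl1 is known to act on, had the same order of levels, which is given with the pathway genes.

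For the remaining genes the 4 d and untreated libraries overlapped. Ifit1 was at 20.7, 60.6, 64.7 and 51.1 CPM at 4 d, so that replicate 1 lay below every untreated library and the others above, a log2 difference of 0.59 ± 0.54. Oas1a was at 5.09, 11.3, 10.3 and 7.47 CPM, with replicate 1 again below every untreated library and replicates 2 and 3 above, and a difference of 0.28 ± 0.36. Rsad2 was at 5.09, 20.2, 8.33 and 22.4 CPM, the widest spread at 4 d, with a difference of -0.03 ± 0.44. Ifit2 was at 10.2, 7.44, 11.3 and 13.7 CPM, a difference of -0.47 ± 0.36, and Oasl2 at 99.7, 105, 71.0 and 67.3 CPM, a difference of -0.48 ± 0.47. For these 5 genes no difference from untreated was detectable beyond the spread between libraries.

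**Figure D3:**
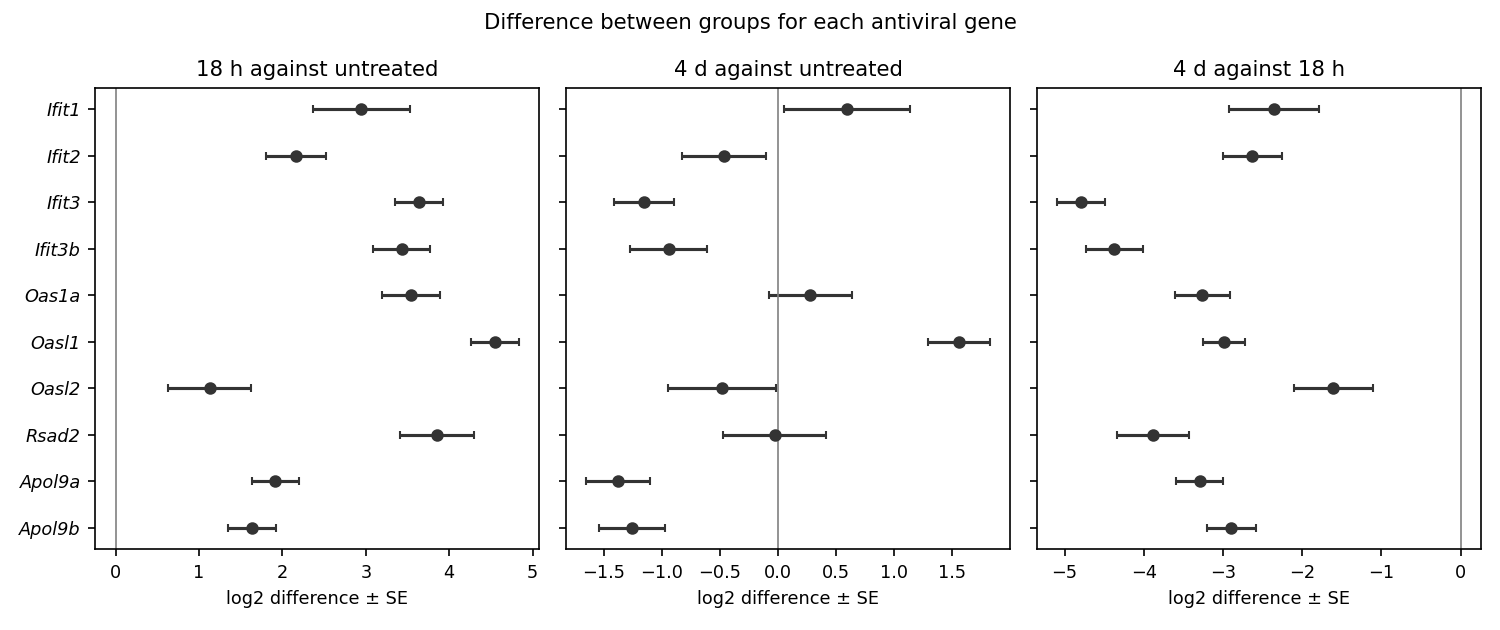
Log2 difference with its SE (bars) for each of the 10 genes in the 3 comparisons. At 18 h all points lie above 0, at 4 d against untreated they run from -1.38 (Apol9a) to 1.56 (Oasl1), and between 4 d and 18 h all lie below 0.

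Between 18 h and 4 d, 9 genes were called lower, as 3.81% of all genes were, and 8 of them had every 4 d library below every 18 h one, as did 10.5% of all genes. This comparison shares its libraries with the others and adds no independent evidence. The log2 difference was largest for Ifit3, at -4.79 ± 0.30, and Ifit3b, at -4.37 ± 0.36. Rsad2 followed at -3.88 ± 0.46, Apol9a at -3.29 ± 0.30 and Oas1a at -3.26 ± 0.35. Oasl1 was at -2.99 ± 0.27, Apol9b at -2.90 ± 0.31 and Ifit2 at -2.63 ± 0.37. Ifit1 was called at -2.36 ± 0.57 although 18 h replicate 2 lay inside its 4 d range. That call was lost in 8 of 21 alternatives, namely limma-voom, the fit of only the 2 groups, the replicate block and the fits without 18 h replicate 1 or 3 or 4 d replicate 1, 2 or 4, and the difference was -1.16 without 18 h replicate 3. Oasl2 was not called, at -1.61 ± 0.50, but was without 18 h replicate 2, at -2.10. The order of the group levels was thus 18 h, untreated, 4 d for Ifit3, Apol9a and Apol9b, and 18 h, 4 d, untreated for Oasl1. In the others 18 h was highest by its mean. Among them untreated and 4 d overlapped, with Ifit3b at 50.4% of the untreated mean at 4 d and called only when summed with Ifit3.

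Other genes of the interferon pathway, in 8 lists grouped by role, give the setting. Of 108 tested, 74 were higher and 2 lower at 18 h, with a median log2 difference of 1.70. Without 18 h replicate 2 these counts were 74 and 1. The lower genes, named after their values were seen, were Irf2bp2, a corepressor, and Ifi27, itself in the list of interferon-induced genes. At 4 d, 8 of the 108 were higher than untreated and 0 lower, with a median of -0.01. The 0 is from edgeR, while 9 of the genes were lower at an unadjusted p below 0.05, DESeq2 called 2 lower and limma-voom 0. Without 18 h replicate 2 the counts were 14 higher and 3 lower, and without 18 h replicate 3, 2 were lower. Between 18 h and 4 d, 61 were lower and 1, Ifi27, was higher.

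**Figure D4:**
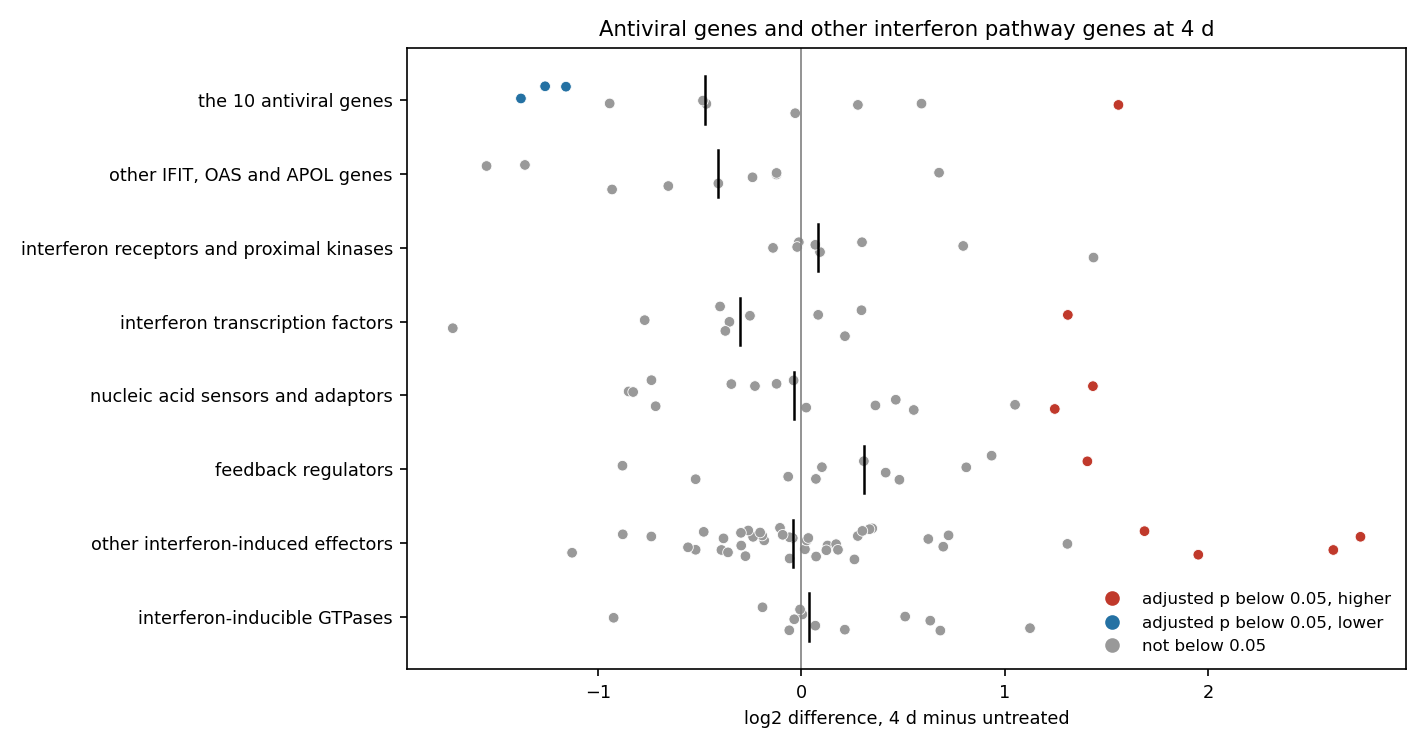
Log2 difference between 4 d and untreated for each of the 10 antiviral genes (top row) and of the tested genes in 7 pathway lists, with a line at each list's median; points are spread vertically for legibility. Red and blue points passed an adjusted p below 0.05 upward and downward. The 3 blue points are Ifit3, Apol9a and Apol9b, and the medians of the lists lie between -0.41 and 0.31.

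The closest relatives outside the 10 were 9 tested IFIT, OAS and APOL genes, of which 5 rose at 18 h, namely Oas1b, Oas1g, Oas2, Oas3 and Apol6. The synthetase gene Oas3 was at 6.72 ± 2.93 CPM untreated (SD, n = 4) and at 133 ± 64.0 CPM after 18 h (SD, n = 3), and its log2 difference was 4.24 ± 0.40 (edgeR adjusted p = 1.9e-05). Oas2 rose by 2.93 ± 0.37 (edgeR adjusted p = 0.00022) and Oas1b by 2.64 ± 0.34 (edgeR adjusted p = 0.00025). Oas1g, a near-copy of Oas1a, rose by 4.52 ± 0.63 (edgeR adjusted p = 0.00045), uncertain for that reason. At 4 d none of the 9 was called by edgeR in either direction, while 3 were lower at an unadjusted p below 0.05, DESeq2 called 1 and limma-voom 0. In Oas2 and Apol11b every 4 d library was below every untreated one. Oas2 was at 18.2, 17.7, 22.3 and 13.7 CPM against 28.0 to 69.9 CPM, a log2 difference of -1.36 ± 0.36 (edgeR adjusted p = 0.052). Apol11b, near the counting limit, was at -1.55 ± 0.47 (edgeR adjusted p = 0.089). Without 18 h replicate 2 edgeR called 2 of the 9 lower, Oas2 among them.

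Of 10 transcription factors, 5 rose at 18 h and 1, Irf7, at 4 d. At 4 d edgeR called 0 of the 10 lower, against 2 at an unadjusted p below 0.05. DESeq2 called 1 lower, limma-voom 0, and edgeR without 18 h replicate 2 called 1. Every 4 d library lay below every untreated one in 1 of the 10 and above in 1. Leaving out untreated replicate 3 or 4 lowered the 18 h count to 3, and leaving out untreated replicate 2 or 18 h replicate 1 lowered it to 2. Irf7, which drives interferon gene transcription, was at 168 ± 34.4 CPM (SD, n = 4) untreated, 1993 ± 569 CPM (SD, n = 3) at 18 h and 418 ± 116 CPM (SD, n = 4) at 4 d. The log2 difference from untreated was 3.56 ± 0.29 at 18 h (edgeR adjusted p = 5.1e-06) and 1.31 ± 0.26 at 4 d (edgeR adjusted p = 0.016), and every 4 d library was above every untreated one. The 4 d call was lost without untreated replicate 2, 3 or 4 or 4 d replicate 3, with the adjusted p between 0.053 and 0.056. Of the response element complex, Stat2 rose at 18 h by 2.26 ± 0.44 (edgeR adjusted p = 0.0049) and Irf9 by 1.18 ± 0.30 (edgeR adjusted p = 0.019). The call of Irf9 was lost without untreated replicate 2 or 4 or 18 h replicate 1 or 3, with the adjusted p between 0.051 and 0.077.

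Nucleic acid sensors and adaptors rose in 11 of 15 cases at 18 h, and none was called lower. Dhx58, an RNA helicase of the RIG-I family, rose by 3.63 ± 0.33 on the log2 scale (edgeR adjusted p = 1.3e-05), Trim25, a ubiquitin ligase that activates RIG-I, by 2.83 ± 0.34 (edgeR adjusted p = 0.00015) and Eif2ak2 by 2.58 ± 0.36 (edgeR adjusted p = 0.00045). At 4 d 2 of the 15 were higher, the kinase gene Tbk1 by 1.25 ± 0.21 (edgeR adjusted p = 0.0085) and the Toll-like receptor adaptor Myd88 by 1.43 ± 0.26 (edgeR adjusted p = 0.012). At that time edgeR, DESeq2 and limma-voom each called 0 of the 15 lower, against 2 at an unadjusted p below 0.05. Every 4 d library lay below every untreated one in 2 of the 15 and above in 3. Among 8 receptor and kinase genes only Jak2 was called at 18 h, at 1.40 ± 0.41 (edgeR adjusted p = 0.038), a call lost without any one of the 18 h replicates or of untreated replicates 2 to 4, and 0 were called at 4 d by edgeR, against 2 at an unadjusted p below 0.05, 2 by DESeq2, 1 by limma-voom and 2 without 18 h replicate 2. At 4 d Jak2 stood at 1.44 ± 0.38 (edgeR adjusted p = 0.056) and Jak1 at 0.80 ± 0.22 (edgeR adjusted p = 0.065).

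Of 11 feedback regulators, 6 rose at 18 h, among them Usp18, which removes ISG15 from proteins and blocks the type I receptor, by 2.98 ± 0.23 (edgeR adjusted p = 3.7e-06), and Samhd1, a nucleotide hydrolase, by 2.35 ± 0.41 (edgeR adjusted p = 0.0024). The phosphatase gene Ptpn2, whose product acts on JAK and STAT proteins, was higher at 4 d, by 1.41 ± 0.27 (edgeR adjusted p = 0.013), a call lost without untreated replicate 3 (edgeR adjusted p = 0.0503). Among 43 other effectors 37 rose at 18 h, such as Slfn2 by 3.74 ± 0.30 (edgeR adjusted p = 4.2e-06) and Ifi35 by 2.26 ± 0.21 (edgeR adjusted p = 1.9e-05). The effectors called above untreated at 4 d were 4 genes of the PYHIN family, some members of which sense DNA. Ifi203, of the same family, also had every 4 d library above every untreated one but was not called. Of the list, 7 were higher at an unadjusted p below 0.05, and 5 were called without 18 h replicate 2. Ifi205 was at 64.6 ± 21.1 CPM (SD, n = 4) untreated and 435 ± 147 CPM (SD, n = 4) at 4 d, a log2 difference of 2.75 ± 0.32 (edgeR adjusted p = 0.0017), and Ifi207 was higher by 2.62 ± 0.34 (edgeR adjusted p = 0.0024). Ifi204 was higher by 1.95 ± 0.34 and Ifi211 by 1.69 ± 0.29 (edgeR adjusted p = 0.0095 for both). Of 12 interferon-inducible GTPases, which attack vacuoles of intracellular parasites, 9 rose at 18 h, including Igtp by 2.19 ± 0.26 and Gbp2 by 1.75 ± 0.23 (edgeR adjusted p = 0.00017 and 0.00035). At 4 d edgeR called 0 of them, against 2 at an unadjusted p below 0.05, 1 by DESeq2, 0 by limma-voom and 2 without 18 h replicate 2.

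The genes whose profile over the 11 libraries was most like the mean profile of the 10 were Usp18, Clec4d, Daxx, Zbp1, Ifi35, Bst2, AW011738 and Batf2. Likeness was the root-mean-square distance of centred log2 CPM, which was 0.186 for Usp18, 0.270 for Clec4d, 0.283 for Daxx and 0.427 for Batf2, against a median of 1.41 over all other tested genes. The 10 genes themselves lay between 0.518 (Ifit2) and 1.14 (Oasl2) from their own mean, so each was further from it than any of the 8. All points share the same libraries and their depths. Usp18, the nearest, was at 28.6 to 34.2 CPM untreated, 230, 194 and 316 CPM at 18 h and 23.3 to 36.0 CPM at 4 d, so that its 4 d range enclosed the untreated one. Daxx, a histone chaperone gene, rose at 18 h by 2.75 ± 0.24 (edgeR adjusted p = 8.3e-06) and Batf2, a transcription factor gene, by 2.82 ± 0.38 (edgeR adjusted p = 0.00036). Clec4d and AW011738 had few counts in all groups, so their distances rest on few counts. In 18 h replicates 1 to 3 Clec4d had 14, 5 and 15 counts and AW011738 31, 6 and 28, with fewer in every other library.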

How the data were processed

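MARS-seq libraries of sorted thymic fibroblasts were compared, 4 untreated, 3 at 18 h and 4 at 4 d. The later group is 3 d in its titles but 4 d in its descriptions, and 4 d is used. Reads went through bcl2fastq, cutadapt, STAR 2.5.2b and HTSeq against build mm10, with DESeq2 also listed, per the submitters' processing notes. The handling of molecular identifiers is not given in the sources used here. Every test used the raw counts that the authors deposited, per the file headers. A deposited normalized signal, counts times 1 constant per library, was not tested. The authors' deposited table also gave log2 fold changes and adjusted p-values.

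Genes passing filterByExpr at a minimum count of 10 entered 1 robust quasi-likelihood fit of edgeR 4.0.16 (R 4.3.3) with TMM scaling, over all 11 libraries, with group as the term. A call is an adjusted p below 0.05, by Benjamini-Hochberg over the 10067 genes, and an SE is the log2 difference divided by the root of F. The fit was tested on simulated data. All 15 replicate pairs differed beyond sampling noise (chi-square per degree of freedom at least 4.79). Alternatives used DESeq2 1.42.0 and limma 3.58.1, other scalings and filters, summed near-copies and libraries left out. The genes and lists were chosen with earlier results of these data known. Named outside the 10 were, per list, up to 4 genes with the smallest adjusted p at each time, detected interferons, receptor chains, Stat2, Irf9, Irf7 and the 8 most alike genes. Some genes that this rule named are not reported here, although they stayed in the fits and counts.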

Additional observations from a re-analysis of the deposited data

Results flagged for a closer look

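Ifit3b in untreated replicate 2 stood apart from its group. The library was at 16.2 CPM, where the other untreated libraries were at 33.3 to 36.2 CPM, and its gap to the nearest of them was 0.853 of the range of the group, above Dixon's critical value for 4 libraries. The test was run on 20 groups of 4 libraries, the untreated and 4 d values of the 10 genes, and chance flags about 1 in 20. Its near-copy Ifit3 was also lowest in that library, at 82.3 CPM.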

How the results depend on the processing

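Of the log2 differences of the 10 genes under alternatives, 595 kept their direction and side of the threshold, 24 lost a call, 6 gained one and 5 changed sign. Rsad2 at 4 d, at -0.03, changed sign with DESeq2 (0.018) and with the replicate block (0.0080), and ranged from -0.38 to 0.31 when libraries were left out. The count of genes called was 1262 at 18 h, 648 with the replicate block and 668 to 1530 over single libraries left out. At 4 d it was 333 against 649 with DESeq2, 60 with the block, 538 with only the 2 groups and 115 to 617 with libraries left out, and between the times 555 against 877, 305, 355 and 241 to 807. Of the 10 genes, the block called 0 higher and 0 lower at 4 d, and leaving out libraries 0 to 3 lower. Pathway genes called lower at 18 h were 1 with DESeq2 size factors, no filter, limma-voom, the block, only the 2 groups or without the 2 shallow libraries, and 1 to 2 with libraries left out. At 4 d those called higher were 5 with the block, 13 with only the 2 groups and 6 to 14 with libraries left out, and those called lower were 2 with total counts, 1 at a minimum count of 20, 2 with DESeq2, 3 with only the 2 groups, 2 without the shallow libraries and 0 to 3 with libraries left out. The causes were not tested. By the replicate numbers of the titles, same-numbered deviations correlated from -0.344 to 0.193 over 10 pairs. The replicate block used the same numbers. The untreated libraries are numbered differently in their descriptions, and pairing by those numbers was not tested, so pairing is not settled. Scaling by total counts moved the median log2 difference of all genes by -0.234 at 18 h and -0.184 at 4 d, and gave 556 higher and 897 lower at 18 h and 173 and 162 at 4 d, where TMM gave 790 and 472, and 250 and 83. The authors' deposited table called 9 of the 10 genes higher at 18 h, 1 higher and 3 lower at 4 d, and 10 lower from 18 h to 4 d. In the same order it had 1639, 626 and 874 of all 12430 genes below 0.05, in either direction. It rests on the same libraries and adds no independent evidence. At 916281 counts, 3 counts equal 3.74 CPM, so low values such as Oas1a and Rsad2 at 4 d rest on few counts.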
